A study of Mus musculus with 9 samples.

Results

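The Sox transcription factors examined here were 10 genes, Sox1, Sox2, Sox3, Sox4, Sox5, Sox6, Sox8, Sox9, Sox11 and Sox21, measured as read counts in the striatum of mouse embryos at E17.5. They were taken by gene symbol from 44886 gene rows, and they are 10 of the 20 Sox genes of the mouse annotation, the remaining 10 being given at the end. Sox8 was chosen by these counts, as lower in both mutants, so its difference from the controls is described without a test. The tissue was the striatum of 9 embryos, 3 for each of the genotype labels Control, Islet1Cre;Ebf1fl/- and Dlx5/6::Cre;Ebf1fl/-, with 400 ng of RNA per library and 1 library per embryo. Ebf1 is a transcription factor of the striatal neurons of the direct pathway, which project to the substantia nigra. In the mutants one Ebf1 allele was null and the other was floxed. The Islet1Cre knock-in recombines the floxed allele in direct pathway neurons and in cholinergic interneurons, and the Dlx5/6::Cre transgene in all striatal projection neurons and in interneurons. Control embryos were heterozygotes from the same kind of cross, whose mothers carried 2 floxed alleles, and their exact genotype is not given in the sources used here. The strain label was C57BL/6 for all embryos, while the Islet1Cre line was kept on a mixed background.

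Sox proteins bind DNA through a domain related to that of the testis-determining factor Sry and are sorted into groups by its sequence. SoxB1 proteins (Sox1, Sox2 and Sox3) maintain neural progenitors, and Sox21, of the SoxB2 group, counteracts them during the exit from the progenitor state. SoxC proteins (Sox4 and Sox11) act in newborn neurons, SoxD proteins (Sox5 and Sox6) lack an activation domain of their own and modulate other Sox proteins, and SoxE proteins (Sox8 and Sox9) are best known for their part in the formation of glia.

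The sequence before the start of Sox8 is shown because Sox8 had the largest fitted difference of the 10 genes, with that of Sox11 beside it because it was the only 1 of the 8 Sox genes found in the promoter table that held a pair of Ebf half-sites. Both are 250 bases from RefSeq (GRCm38.p6), minus strand, ending at the base before the start, and capitals mark the letters CCCNNGGG, searched on both strands, which read the same.
Sox8, chr17:25570687-25570936: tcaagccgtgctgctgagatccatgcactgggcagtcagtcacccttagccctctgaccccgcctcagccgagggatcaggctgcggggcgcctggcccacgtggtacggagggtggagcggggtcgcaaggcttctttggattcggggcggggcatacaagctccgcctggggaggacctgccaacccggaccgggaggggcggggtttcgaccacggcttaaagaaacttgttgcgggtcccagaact
Sox11, chr12:27342719-27342968: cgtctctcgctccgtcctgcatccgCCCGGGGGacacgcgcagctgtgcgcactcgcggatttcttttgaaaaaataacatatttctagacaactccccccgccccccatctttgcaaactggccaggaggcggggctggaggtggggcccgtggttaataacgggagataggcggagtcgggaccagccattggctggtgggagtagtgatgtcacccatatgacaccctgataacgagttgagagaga
The stretch before Sox8 held no match, which says only that these letters are absent from this window. CCCNNGGG occurred in 11.8% of all 32851 regions of this length. The Sox core ACAAT, searched on both strands, occurred in 27.7% of them and before 2 of the 8 Sox genes, Sox5 and Sox6. The share is per region, while a gene counted if any of its regions held the letters. Sox6 had several regions, and not all of them did. The G and C content of the stretch was 65.6% for Sox8 and 58.0% for Sox11, against a median of 52.4% over all regions.

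Libraries held 16548083 to 41507049 counts, and every one of the 10 genes was counted in every embryo, from 45 reads of Sox3 to 29896 reads of Sox4. Values below are normalized counts, the counts divided by the size factor of the library. A gene was called changed at a Benjamini-Hochberg adjusted p below 0.05 in edgeR's quasi-likelihood test over 16368 genes. Nothing in the labels says that the embryos came from separate litters, and p-values measure the spread between these 9 embryos.

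Several libraries stood apart, and the Ebf1 counts did not separate the genotypes. Ebf1 itself was not lower in the mutants, with 7945, 14208 and 9697 normalized counts in the controls, 15343, 13866 and 13210 in Islet1Cre;Ebf1fl/- and 11774, 13079 and 15312 in Dlx5/6::Cre;Ebf1fl/-, so that the counts do not check the genotypes. Reads of a gene with a deleted part can still be counted elsewhere in the gene. The paper reports from immunostaining that Ebf1 protein was missing from the E17.5 striatum of both mutants. Dlx5/6::Cre;Ebf1fl/- replicate 1 held 11908 normalized counts over 5 genes of dividing cells (Mki67, Top2a, Ccnb1, Cdk1 and Aurkb), against 2000 to 3417 in the other 8 embryos. It held 53542 over 10 radial glia genes against 25148 to 33458, and 5787 over 7 genes of cortical excitatory neurons against 958 to 2952, with no gene of these lists at 0 in any library. Control replicate 3 and Islet1Cre;Ebf1fl/- replicate 3 held both Xist (12074 and 7270 normalized counts) and the Y-linked Ddx3y (59.6 and 583), a combination not met in a single normal embryo. Control replicate 2 held 3.27 normalized counts of Xist and 917 of Ddx3y. The 3 Dlx5/6::Cre;Ebf1fl/- embryos held 10791 to 14766 of Xist and 0 of Ddx3y. Sex was thus not balanced between the genotypes, and its part in the differences was not tested. Projection neuron markers were high throughout, for instance Bcl11b at 19852 to 26468 normalized counts. The part of these libraries in each result was not tested, and differences that move with Dlx5/6::Cre;Ebf1fl/- replicate 1 are also given without it.

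Sox8 was the SoxE gene with the highest level in the controls and the Sox gene that differed most between genotypes. Its gene lies on chromosome 17 (25565892 to 25570686, minus strand, GRCm38) in 3 exons, and an antisense gene covers 10.55% of its exon bases. It had 5547, 5013 and 4215 normalized counts in the 3 controls, 1813, 1462 and 2303 in the 3 Islet1Cre;Ebf1fl/- embryos, and 1575, 1390.5 and 1409 in the 3 Dlx5/6::Cre;Ebf1fl/- embryos. All 6 mutant embryos lay below all 3 controls, as was so for 4.075% of all genes tested. Islet1Cre;Ebf1fl/- replicate 3, a library with mixed Xist and Y-linked reads and the shallowest of all, was the mutant nearest to the controls. The level was 37.5% of the controls in Islet1Cre;Ebf1fl/- (log2 fold change -1.41, 95% interval -1.76 to -1.07) and 29.6% in Dlx5/6::Cre;Ebf1fl/- (-1.76, -2.10 to -1.41). In whole tissue, fewer cells with Sox8 RNA and less Sox8 RNA per cell cannot be told apart.

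**Figure D1:**
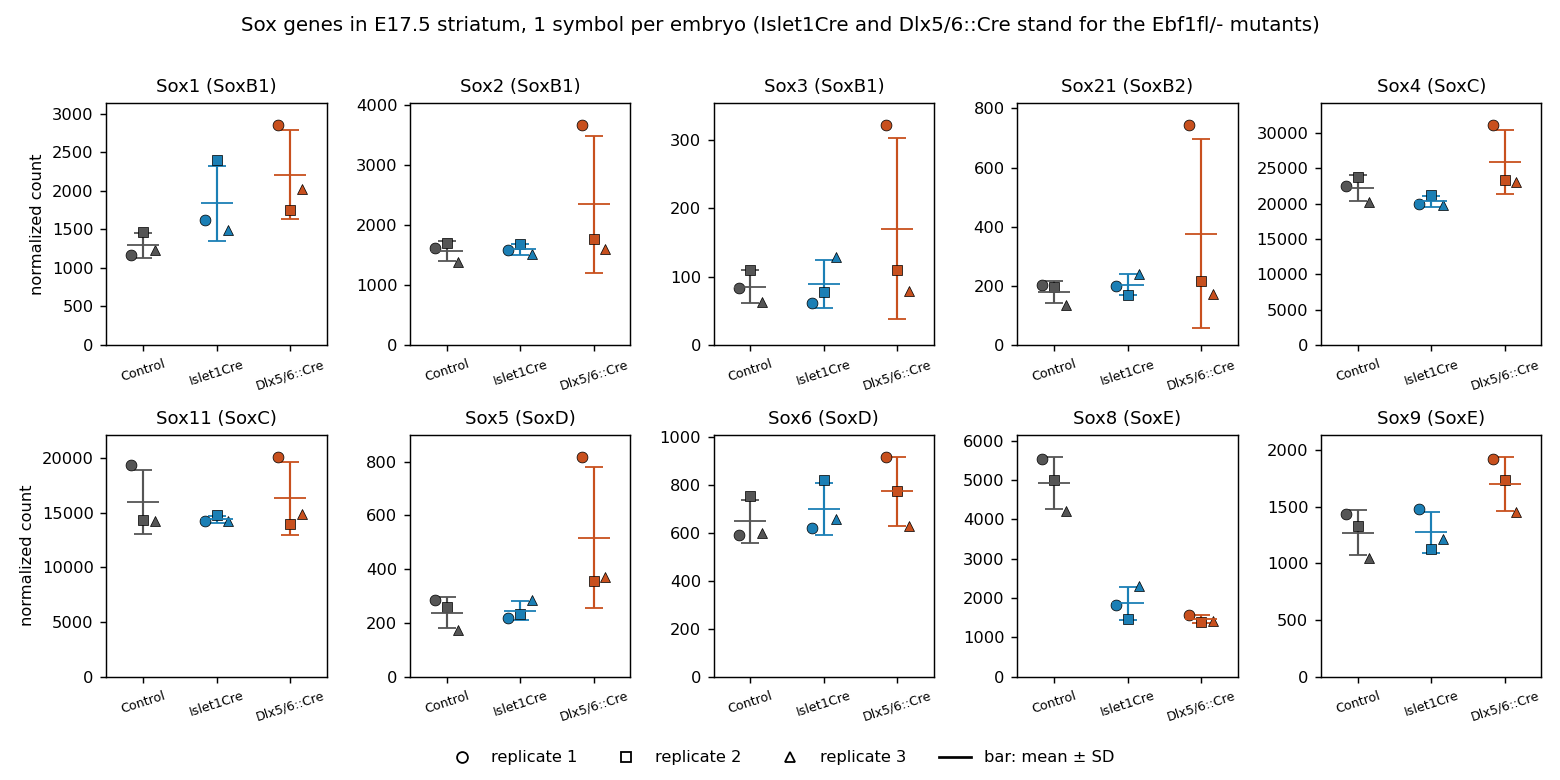
Normalized counts (y axes, each from 0) of the 10 Sox genes in the 3 genotypes (x axes), with 1 symbol per embryo and the mean ± SD of 3 embryos as bars. Sox8 is at 4215 to 5547 in the controls and at 1390.5 to 2303 in the 6 mutant embryos, while Dlx5/6::Cre;Ebf1fl/- replicate 1 (circle) is the highest of all 9 embryos for the other 9 genes.

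Sox8 was also lower in both mutants in fits that left out the libraries that stood apart. These fits reuse the embryos Sox8 was chosen by and are a description. Without Dlx5/6::Cre;Ebf1fl/- replicate 1 the log2 fold change in that mutant was -1.82. With this library and both libraries of mixed reads left out, it was -1.92 in Dlx5/6::Cre;Ebf1fl/- and -1.70 in Islet1Cre;Ebf1fl/- (2 embryos a group). The embryo codes begin with IE or with D, and what these letters stand for is not given in the sources used here. Among the 5 embryos coded IE the log2 fold change was -1.51 in Islet1Cre;Ebf1fl/-, and among the 4 coded D, which include 1 control, it was -1.53 in Dlx5/6::Cre;Ebf1fl/-.

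The comparison between the mutants was not used in choosing Sox8. Sox8 was at 78.8% in Dlx5/6::Cre;Ebf1fl/- of its level in Islet1Cre;Ebf1fl/- (log2 fold change -0.34, SE 0.15, edgeR adjusted p = 0.868), and the embryos overlapped. The 95% interval, -0.68 to -0.003, does not show that the levels were alike. Without Islet1Cre;Ebf1fl/- replicate 3 the log2 fold change was -0.16, and with the code letters as a covariate it was -0.02. All Islet1Cre;Ebf1fl/- embryos were coded IE and all Dlx5/6::Cre;Ebf1fl/- embryos D, so code and genotype cannot be told apart between the mutants. The covariate was fitted only through the controls, where replicate 3 was coded D and replicates 1 and 2 were coded IE.

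Sox9, the SoxE factor that drives the switch of progenitors from making neurons to making glia, did not follow Sox8. It had 1435, 1334 and 1048 normalized counts in the controls, 1481, 1127 and 1212 in Islet1Cre;Ebf1fl/-, and 1927, 1736 and 1452 in Dlx5/6::Cre;Ebf1fl/-. Islet1Cre;Ebf1fl/- overlapped the controls with a log2 fold change of -0.004 (95% interval -0.33 to 0.32). Every Dlx5/6::Cre;Ebf1fl/- embryo was above every control, yet the difference of 0.42 (SE 0.15) missed the threshold (edgeR adjusted p = 0.197). Over all 16368 genes tested, 9.63% had all Dlx5/6::Cre;Ebf1fl/- embryos above all controls.

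Per length, Sox8 was above Sox9 and Sox10 in all 3 genotypes, by a smaller ratio to Sox9 in the mutants. Sox8 had 1580 ± 215 normalized counts per kb of exon in the controls (SD, n = 3) and Sox9 had 308 ± 48.6. The ratio of Sox8 to Sox9 per length was 5.13, 4.98 and 5.34 in the controls, 1.62, 1.72 and 2.52 in Islet1Cre;Ebf1fl/-, and 1.08, 1.06 and 1.29 in Dlx5/6::Cre;Ebf1fl/-. Sox8 thus went from 78.9 to 80.2% of the summed SoxE level (Sox8, Sox9 and Sox10) in the controls to 55.9 to 66.6% in Islet1Cre;Ebf1fl/- and 44.8 to 50.3% in Dlx5/6::Cre;Ebf1fl/-, a shift that includes the difference Sox8 was chosen for. Sox10, the third SoxE gene and a factor of oligodendrocyte precursors, was at 275 to 331 normalized counts in the controls and 238 to 394 in the mutants.

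The SoxB1 genes, which mark neural progenitors, did not move as 1 group. Sox1, on chromosome 8, is the SoxB1 gene that also persists in some striatal neurons after they leave the cell cycle. It had 1171, 1471 and 1235 normalized counts in the controls, 1624, 2396 and 1496 in Islet1Cre;Ebf1fl/-, and 2853, 1746 and 2025 in Dlx5/6::Cre;Ebf1fl/-. All 6 mutant embryos were above all 3 controls, as was so for 3.63% of all genes tested, and Sox1 was the only Sox gene with this pattern.

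Neither difference of Sox1 from the controls passed the threshold. It was 0.51 on the log2 scale in Islet1Cre;Ebf1fl/- (SE 0.20, 142.6% of the controls, edgeR adjusted p = 0.507) and 0.77 in Dlx5/6::Cre;Ebf1fl/- (SE 0.20, 170.7%, edgeR adjusted p = 0.0884). DESeq2 gave an adjusted p of 0.00543 for the second. Without Dlx5/6::Cre;Ebf1fl/- replicate 1 the second was 0.54, and with all 3 libraries that stood apart left out the values were 0.61 in Islet1Cre;Ebf1fl/- and 0.51 in Dlx5/6::Cre;Ebf1fl/-. Sox1ot, a long noncoding RNA on the same strand that shares no exon bases with Sox1, was at 2633 to 3009 normalized counts in the controls and 3076 to 6244 in the mutants.

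Sox2, which keeps progenitors dividing, had 1611, 1704 and 1383 normalized counts in the controls, 1583, 1693 and 1516 in Islet1Cre;Ebf1fl/-, and 3669, 1772 and 1608 in Dlx5/6::Cre;Ebf1fl/-. Only replicate 1 of the last group stood outside the range of the others. Against the controls the log2 fold change was 0.03 in Islet1Cre;Ebf1fl/- (95% interval -0.54 to 0.59) and 0.58 in Dlx5/6::Cre;Ebf1fl/- (edgeR adjusted p = 0.302), and the latter was 0.11 without that library.

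Sox3, X-linked and the least abundant of the 10 genes in reads, had 83.2, 110.2 and 62.5 normalized counts in the controls, 61.2, 77.3 and 129 in Islet1Cre;Ebf1fl/-, and 322, 109 and 79.1 in Dlx5/6::Cre;Ebf1fl/-. The same Dlx5/6::Cre;Ebf1fl/- library was high. Fitted log2 fold changes were 0.04 in Islet1Cre;Ebf1fl/- (95% interval -1.06 to 1.14) and 0.98 in Dlx5/6::Cre;Ebf1fl/- (edgeR adjusted p = 0.356), the latter being 0.13 without replicate 1. At this depth and spread no change of Sox3 was detected, and the wide interval does not show that its levels were alike.

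Sox21, the SoxB2 gene, behaved in the same way. It had 203, 197 and 136 normalized counts in the controls, 199.8, 169.6 and 242 in Islet1Cre;Ebf1fl/-, and 744, 215 and 171 in Dlx5/6::Cre;Ebf1fl/-. Replicate 1 of the last group was 3.08 times the highest of the other 8 embryos, the largest such ratio among the 10 genes, ahead of Sox3 (2.50), Sox5 (2.20) and Sox2 (2.07). In Dlx5/6::Cre;Ebf1fl/- the log2 fold change was 1.07 (SE 0.47, edgeR adjusted p = 0.300) with this library and 0.11 without it. In Islet1Cre;Ebf1fl/- it was 0.18 (95% interval -0.86 to 1.22).

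Across the 9 embryos, the Sox genes other than Sox8 had Pearson r with the radial glia list from 0.41 (Sox1) to 0.93 (Sox21). Their Spearman rho ran from -0.07 (Sox1) to 0.73 (Sox21). Without Dlx5/6::Cre;Ebf1fl/- replicate 1, which was high for both, Pearson r ran from -0.54 (Sox1) to 0.59 (Sox3). The closest of 30 relations examined (10 genes, and lists for radial glia, interneurons of the medial ganglionic eminence and oligodendrocyte precursors) was that of Sox21 with radial glia (Pearson r = 0.93, Spearman rho = 0.73, permutation p = 0.00676 and 0.0311). None of the 30 passed after adjustment, the smallest adjusted p of Pearson's r in the exact permutation test being 0.0758. Without the 2 embryos farthest from the median of the list, Dlx5/6::Cre;Ebf1fl/- replicates 1 and 2, r was 0.52. It was already 0.58 without replicate 1 alone.

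Sox4 and Sox11, of the SoxC group, had the highest mean levels per length of all Sox genes in every genotype. Sox4, which acts with Sox11 in newborn neurons, had 22527, 23769 and 20145 normalized counts in the controls, 19956, 21209 and 19802 in Islet1Cre;Ebf1fl/-, and 31082, 23359 and 23097 in Dlx5/6::Cre;Ebf1fl/-. Against the controls it was at -0.13 on the log2 scale (95% interval -0.39 to 0.14) in the first mutant and at 0.22 (-0.04 to 0.49) in the second, the latter being 0.07 without replicate 1 and 0.0016 without the 3 libraries that stood apart. A long noncoding RNA on the other strand, Gm26735, covers 54.6% of the exon bases of Sox4, and it was at 67.8 to 151 normalized counts.

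Sox11 had 19377, 14362 and 14231 normalized counts in the controls, 14238, 14769.8 and 14244 in Islet1Cre;Ebf1fl/-, and 20171, 13998 and 14875 in Dlx5/6::Cre;Ebf1fl/-. A single embryo was high among the controls and another among the Dlx5/6::Cre;Ebf1fl/- embryos. Its log2 fold change was -0.15 (95% interval -0.49 to 0.18) in Islet1Cre;Ebf1fl/- and 0.03 (-0.30 to 0.37) in Dlx5/6::Cre;Ebf1fl/-, where it was -0.15 without replicate 1. Fitted over 9 embryos, all 4 intervals of Sox4 and Sox11 lay within 0.49 of 0 on this scale.

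Of 3 genes known as SoxC targets, the neuronal tubulin gene Tubb3, the microtubule gene Dcx and Tead2, none passed the test in either mutant (0 of 3 in each, against 0.971% and 2.39% of all genes). Tubb3, the most abundant of them, was at 74678 to 77071 normalized counts in the controls and 63516 to 75383 in the mutants. The median log2 fold change of the 3 was 0.03 in Islet1Cre;Ebf1fl/- and 0.16 in Dlx5/6::Cre;Ebf1fl/-, where the median over all genes was -0.002 and 0.01. Without Dlx5/6::Cre;Ebf1fl/- replicate 1 the second median was -0.10, and Tead2, with 2169 normalized counts in that embryo against 425 to 689 in the other 8, went from 0.92 to -0.20.

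Of the SoxD genes, Sox5 differed more than Sox6. Sox5, which spans chromosome 6 from 143828425 to 144781977 on the minus strand, had 283, 259.7 and 171 normalized counts in the controls, 217, 234 and 285 in Islet1Cre;Ebf1fl/-, and 818, 357 and 372 in Dlx5/6::Cre;Ebf1fl/-. All Dlx5/6::Cre;Ebf1fl/- embryos were above all embryos of the other genotypes. The summed level of the 7 cortical excitatory neuron genes was split likewise, with 5787, 2450 and 2952 normalized counts in these embryos against 958 to 2364 in the other 6, and its part in the Sox5 difference was not tested. The log2 fold change against the controls was 1.11 (SE 0.31, edgeR adjusted p = 0.109), and against Islet1Cre;Ebf1fl/- it was 1.08 (SE 0.32, edgeR adjusted p = 0.868).

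DESeq2 called Sox5 higher in Dlx5/6::Cre;Ebf1fl/- than in the controls (adjusted p = 0.00591), and so did edgeR without a filter on low counts (adjusted p = 0.0108). Without replicate 1 the log2 fold change was 0.61 against the controls, with edgeR adjusted p = 0.135, and 0.58 against Islet1Cre;Ebf1fl/-, beside medians of 0.62 and 0.95 for the cortical excitatory list. With all 3 libraries that stood apart left out it was 0.42 against the controls. In Islet1Cre;Ebf1fl/- against the controls Sox5 was at 0.04 (95% interval -0.66 to 0.74).

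Sox6, which acts in progenitors and in interneurons of the medial ganglionic eminence, had 591, 751 and 599 normalized counts in the controls, 619.8, 821 and 657 in Islet1Cre;Ebf1fl/-, and 917, 773 and 629 in Dlx5/6::Cre;Ebf1fl/-. The 3 groups overlapped. Sox6 had a log2 fold change of 0.11 (95% interval -0.25 to 0.47) in Islet1Cre;Ebf1fl/- and 0.25 (-0.10 to 0.61) in Dlx5/6::Cre;Ebf1fl/-, the latter being 0.11 without replicate 1 and 0.058 without the 3 libraries that stood apart. Over 8 marker genes of interneurons of the medial ganglionic eminence the summed level was 12065 to 13163 normalized counts in the controls, 12127 to 13486 in Islet1Cre;Ebf1fl/- and 9953 to 12309 in Dlx5/6::Cre;Ebf1fl/-.

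Counted over the 10 genes, 1 was called in Islet1Cre;Ebf1fl/- against the controls and 1 in Dlx5/6::Cre;Ebf1fl/- against the controls, in both cases Sox8, which was chosen for it. Over all genes, 0.971% and 2.39% were called in these comparisons. Of the other 9 genes none was called by edgeR in either, where edgeR gave 1298 and 2543 genes with an unadjusted p under 0.05. Their log2 fold changes ran from -0.15 to 0.51 with a median of 0.04 in Islet1Cre;Ebf1fl/- and from 0.03 to 1.11 with a median of 0.58 in Dlx5/6::Cre;Ebf1fl/-. The 2 comparisons share the control embryos.

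**Figure D2:**
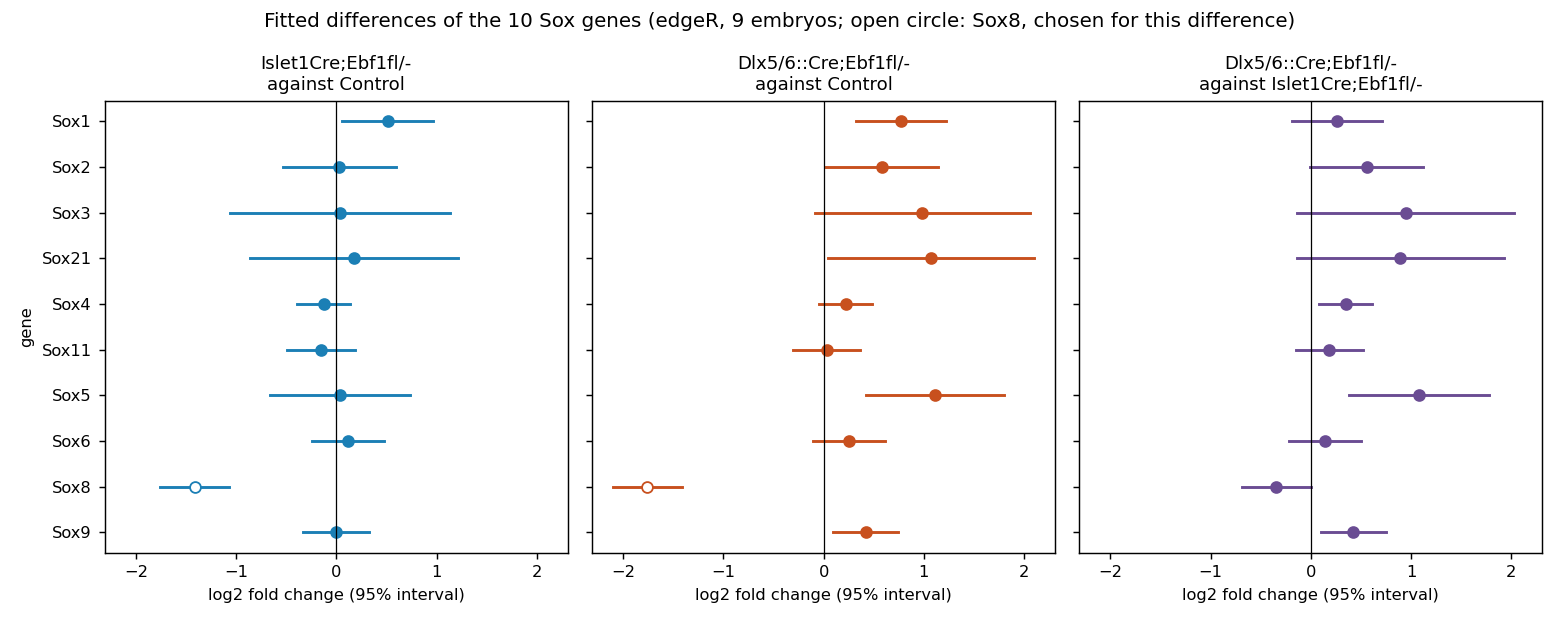
Log2 fold change (x axes) of each of the 10 Sox genes (y axis) in the 3 comparisons, fitted by edgeR over 9 embryos, with 95% intervals as lines; open circles mark Sox8 against the controls, for which it was chosen. The interval of Sox8 lies below -1.07 in both mutants, and of the other 9 genes Sox5 in Dlx5/6::Cre;Ebf1fl/- has the largest value, 1.11.

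All samples of 1 group above all samples of the other were seen for 1 of the 10 genes in Islet1Cre;Ebf1fl/- (Sox1) against 7.83% of all genes tested, and for 3 in Dlx5/6::Cre;Ebf1fl/- (Sox1, Sox5 and Sox9) against 9.63%. Between the mutants 0 of the 10 genes were called, as was 0% of all genes by edgeR, where 844 genes had an unadjusted p under 0.05 and DESeq2 called 17, none of them among the 10. Dlx5/6::Cre;Ebf1fl/- embryos lay above all Islet1Cre;Ebf1fl/- embryos for Sox4 and Sox5, 2 of the 10 genes, against 4.96% of all genes. The log2 fold change of Sox4 between the mutants was 0.35 (SE 0.12, edgeR adjusted p = 0.868), and 0.19 without Dlx5/6::Cre;Ebf1fl/- replicate 1.

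Much of the median shift of the 9 genes in Dlx5/6::Cre;Ebf1fl/- went with replicate 1. This embryo was the highest of the 9 for all 9 genes, by 1.04 times (Sox11) to 3.08 times (Sox21) the next. Without it the median log2 fold change of the 9 genes against the controls was 0.11, with a range of -0.15 (Sox11) to 0.61 (Sox5), and the median over all genes was -0.01. Of the 9 genes 8 were still above 0, among them Sox1 at 0.54 and Sox9 at 0.32. The radial glia list moved likewise, its median log2 fold change going from 0.36 to -0.03, and the list of dividing cells from 1.10 to -0.01.

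**Figure D3:**
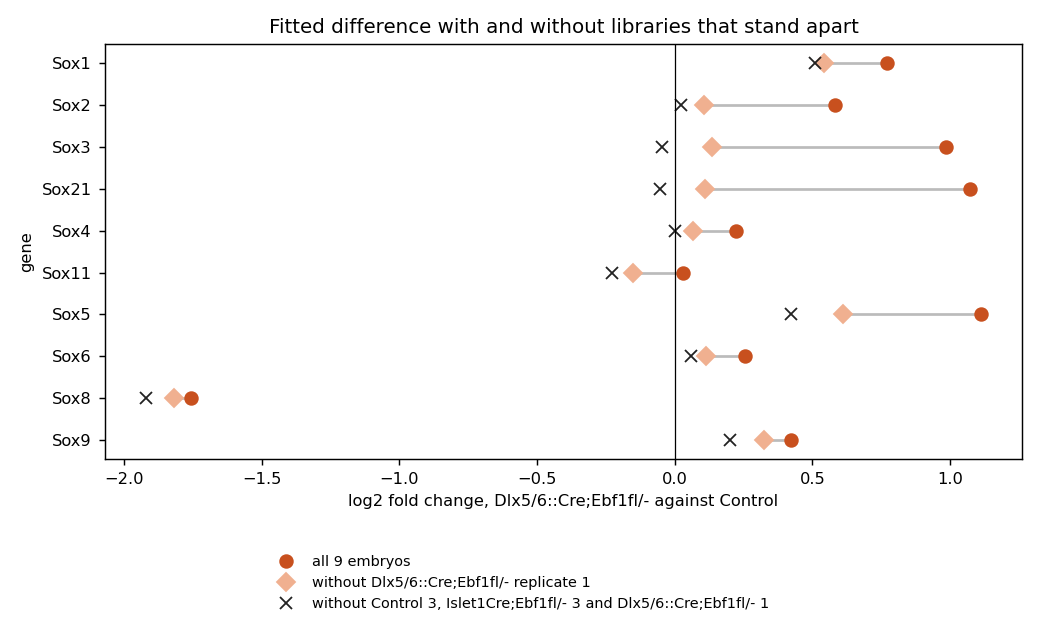
Log2 fold change of the 10 Sox genes in Dlx5/6::Cre;Ebf1fl/- against Control (x axis) with all 9 embryos (circles), without Dlx5/6::Cre;Ebf1fl/- replicate 1 (diamonds) and without the 3 libraries that stood apart (crosses). Sox2, Sox3 and Sox21 move from 0.58, 0.98 and 1.07 to between 0.11 and 0.13, whereas Sox8 stays at or below -1.76 and Sox1 and Sox5 stay above 0.42.

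Levels can be compared between Sox genes only per length. In the controls Sox4 led with 4619 ± 384 normalized counts per kb of exon (SD, n = 3), followed by Sox11 with 1924 ± 353, Sox8 with 1580 ± 215 and Sox12 with 1415 ± 110.5. The embryos of Sox11 and Sox8 overlapped, as did those of Sox8 and Sox12. Sox2 came next at 761 ± 80.1, then Sox9 and Sox1 (267 ± 32.6), which overlapped, and the 10 genes ended with Sox21 (46.9 ± 9.77), Sox6 (43.6 ± 6.09) and Sox3 (41.3 ± 11.6), whose embryos overlapped, and Sox5 (16.6 ± 4.11). In both mutants Sox8 was the fifth of all Sox genes per length, at 596 normalized counts per kb in Islet1Cre;Ebf1fl/- and 468 in Dlx5/6::Cre;Ebf1fl/-, behind Sox12 and Sox2, and its embryos there overlapped those of Sox1.

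**Figure D4:**
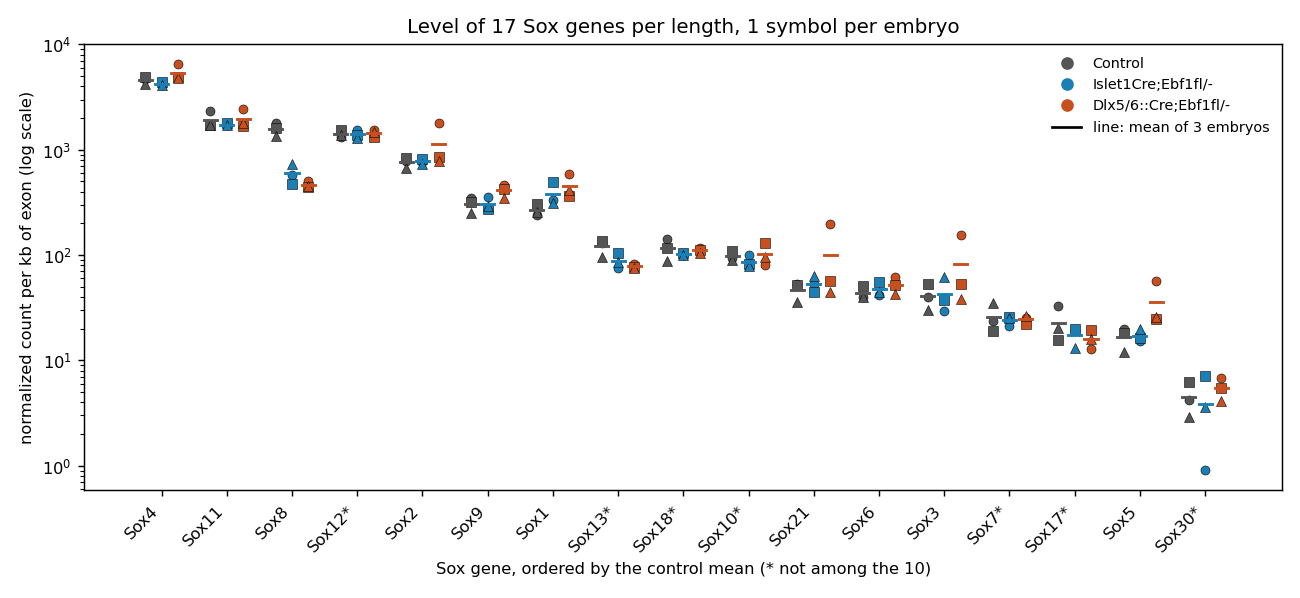
Normalized counts per kb of exon (y axis, log scale) of 17 Sox genes (x axis, ordered by the control mean, asterisks for genes outside the 10), with 1 symbol per embryo and a line at each mean. Sox4 is highest with a control mean of 4619, and Sox8 falls from the third place at 1580 in the controls to 596 and 468 in the mutants.

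The partners through which Sox proteins act in neural cells were examined as well. SoxB1 and SoxC proteins bind together with POU factors, and of the 4 Pou3f genes 1 was called in each mutant, Pou3f1, which rose, where 0.971% and 2.39% of all genes were called. It had 1099.9, 1539 and 1307 normalized counts in the controls, 2726, 2238 and 2198 in Islet1Cre;Ebf1fl/-, and 2689.9, 2015 and 2714 in Dlx5/6::Cre;Ebf1fl/-. Its log2 fold change was 0.86 (SE 0.15, edgeR adjusted p = 0.0256) and 0.91 (SE 0.15, edgeR adjusted p = 0.0107). Pou3f3, the most abundant of the 4, had values of 0.08 and 0.29 on this scale, which did not pass, the second being 0.08 without Dlx5/6::Cre;Ebf1fl/- replicate 1. Of the 3 nuclear factor I genes, which work with Sox9 in the onset of gliogenesis, 0 were called in either mutant, and Nfib, the most abundant, was at 0.03 and 0.43 (-0.02 without replicate 1), with 2870.1 normalized counts in Dlx5/6::Cre;Ebf1fl/- replicate 1 against 953 to 1682 in the other embryos.

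Marker lists for cell types gave few calls, in comparisons where 0.971% and 2.39% of all genes were called. Of 10 radial glia genes 0 were called in either mutant, as of 5 genes of dividing cells, 4 of oligodendrocyte precursors, 8 of medial ganglionic eminence interneurons, 4 of cholinergic neurons, 7 of cortical excitatory neurons, 6 of endothelial cells and 4 of microglia. Of 5 astrocyte genes tested, Slc1a2, a glutamate transporter, rose in Dlx5/6::Cre;Ebf1fl/- (log2 fold change 0.48, edgeR adjusted p = 0.0356), and of 6 genes of projection neurons Foxp1 fell there (-0.53, edgeR adjusted p = 0.0305). Without Dlx5/6::Cre;Ebf1fl/- replicate 1 these values were 0.45 (edgeR adjusted p = 0.0415) for Slc1a2 and -0.43 (edgeR adjusted p = 0.0319) for Foxp1. The projection neuron list did not fall as a whole. With all embryos its median log2 fold change in Dlx5/6::Cre;Ebf1fl/- against the controls was -0.006. Meis2 (0.41), Gad1 (0.23) and Gad2 (0.15) were higher there, and Bcl11b (-0.19) and Ppp1r1b (-0.17) lower, none of them called. The summed oligodendrocyte precursor level was 3978 to 5147 normalized counts in the controls, 3598 to 4422 in Islet1Cre;Ebf1fl/- and 4393 to 6049.9 in Dlx5/6::Cre;Ebf1fl/-.

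The genes most like Sox8 over the 9 embryos were sought among 12050 genes with a mean of at least 100 normalized counts. By Pearson's r of the log2 values, the 10 closest were Lmo2 (0.990), Plxnd1 (0.990), Mmgt2 (0.986), Ptgfrn (0.985), Mboat2 (0.983), 1700037H04Rik (0.983), Odc1 (0.975), Cd276 (0.974), Vrk1 (0.973) and Ada (0.972). These values are a description, since the 9 points share their libraries and fall into mutants and controls. Lmo2, a LIM domain protein that bridges transcription factors, and Plxnd1, a semaphorin receptor of growing axons, were of like size to Sox8, with log2 fold changes of -1.66 and -1.41 in Islet1Cre;Ebf1fl/- and -2.13 and -1.86 in Dlx5/6::Cre;Ebf1fl/-. When each value was taken as the deviation from its genotype mean, r with Sox8 was 0.82 to 0.88 for Lmo2, Plxnd1, Ptgfrn, Mboat2 and 1700037H04Rik, which like Sox8 were highest among the mutants in Islet1Cre;Ebf1fl/- replicate 3. It was 0.485 to 0.753 for the others, of which Mmgt2, Odc1, Vrk1 and Ada were also highest there.

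**Figure D5:**
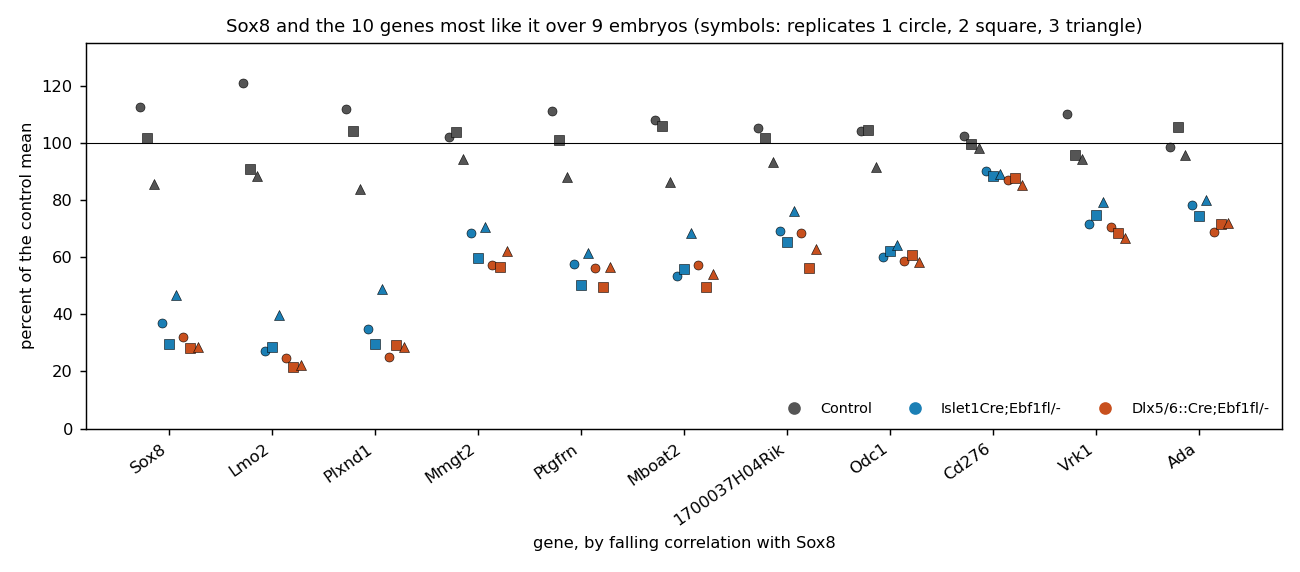
Level of Sox8 and of the 10 genes most like it in each embryo, as percent of the control mean (y axis, from 0), with genes ordered by their correlation with Sox8 (x axis). Sox8 lies at 28.2 to 46.8% in the 6 mutant embryos, Lmo2 at 21.4 to 39.9% and Plxnd1 at 24.9 to 48.8%, whereas Cd276 lies at 85.3 to 90.1%.

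Over the 9 embryos the other 9 Sox genes had r with Sox8 of at most 0.15. Sox1 ran against it (r = -0.79 over the 9 embryos, -0.36 for the deviations from the genotype means), and the remaining 8 lay between -0.46 (Sox6) and 0.15 (Sox11). For the deviations from the genotype means, r was 0.60 for Sox5, 0.55 for Sox3, 0.53 for Sox21 and 0.52 for Sox9, values within the range of the genes named above, and between -0.17 (Sox6) and 0.40 (Sox11) for Sox2, Sox4, Sox6 and Sox11. Sox13, a SoxD gene outside the 10, had r = 0.82 over the 9 embryos and 0.08 for the deviations.

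Of the 10 remaining Sox genes of the annotation, 7 passed the filter on low counts and none was called. Against the controls, 0.971% of all genes were called in Islet1Cre;Ebf1fl/- and 2.39% in Dlx5/6::Cre;Ebf1fl/-. Sox12 (SoxC) was at 5750.4 to 6931 normalized counts over all embryos, and Sox18, Sox17 and Sox7, the SoxF genes of blood vessels, were at 143 to 229.7, 61.5 to 156 and 62.9 to 115. Sox13 had 556, 589.6 and 416 normalized counts in the controls, 326, 448 and 374 in Islet1Cre;Ebf1fl/-, and 354, 334 and 325 in Dlx5/6::Cre;Ebf1fl/-, with log2 fold changes of -0.44 (edgeR adjusted p = 0.416) and -0.63 (edgeR adjusted p = 0.0806). It was the only Sox gene other than Sox8 whose Dlx5/6::Cre;Ebf1fl/- embryos all lay below the controls, a pattern of 11.27% of all genes tested. Sox30 had 2 to 30 reads per library, Sox14 and Sox15 had at most 2 reads, and Sry had 0 in every library.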

How the data were processed

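The authors removed multi-mapped reads after alignment with STAR 2.4.0k and counted reads per gene of Ensembl 81 with HTSeq-count 0.5.3; the deposited values are raw counts, and whether strand was used in counting is not given in the sources used here. Where 2 counted genes share exon bases (Sox4 and Sox5 with an antisense gene, Sox1 with a miRNA gene on its own strand), reads of the shared bases could be lost from the count. Of 44886 gene identifiers, 44133 had a name in GENCODE M21. Here edgeR 4.0.16 (R 4.3.3) was run on all 9 libraries with TMM scaling, filterByExpr (minimum count 10) and the quasi-likelihood test, with genotype groups from the labels, and p-values were adjusted over 16368 genes. Normalized counts were divided by DESeq2 1.42.0 size factors. In data simulated for Islet1Cre;Ebf1fl/- against Control (16063 genes), 70.9% of genes changed by 1 log2 unit and 88.0% of those changed by 2 were recovered. Correlations used log2 of the value plus 1 and exact permutation.

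Members and lists were chosen with earlier results of these data known. All 10 Sox genes were named, other Sox genes with a mean of at least 50 normalized counts in a genotype, the most abundant gene and those past the threshold of the partner and target lists, and the 10 genes most like Sox8. Remaining Sox genes of the annotation and some genes of marker lists were named after their values were seen. Replicates differed by far more than counting error. Alternatives were DESeq2, its size factors, other filters, fewer samples, the replicate number or embryo code as a term, and leaving out each embryo. Leaving out 3 libraries together and the fits within 1 code were chosen after seeing the data.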

Additional observations from a re-analysis of the deposited data

How the results depend on the processing

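In 491 of 530 alternative values the 30 fitted log2 fold changes (10 genes in 3 comparisons) kept their direction, with no threshold newly passed. These values include Sox8 in Dlx5/6::Cre;Ebf1fl/- against the controls among the 4 embryos coded D. There it kept its direction (-1.53) but was not called, with 1 control. In 4 further values (Sox1 and Sox5, with DESeq2 and with no filter on low counts) the threshold was passed only in the alternative. The sign changed in 35, all of them differences that were not called, and the cause was not tested. Sox8 was lower in both mutants in every alternative, by -1.70 to -1.26 in Islet1Cre;Ebf1fl/- and by -1.92 to -1.53 in Dlx5/6::Cre;Ebf1fl/-. DESeq2 and the fit with no filter on low counts each called 3 of the 10 genes (Sox1, Sox5 and Sox8) in Dlx5/6::Cre;Ebf1fl/- against the controls, and the 4 embryos coded D, with 1 control, gave 0 of 10 and 2 genes in all. Over all genes, calls in Islet1Cre;Ebf1fl/- and Dlx5/6::Cre;Ebf1fl/- numbered 159 and 392, against 395 and 873 with DESeq2, 311 and 708 with no filter, 259 and 181 with only the samples of the comparison, and 61 and 32 with the embryo code as covariate.

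Signs changed in Islet1Cre;Ebf1fl/- against the controls as follows. With the embryo code as covariate, among the embryos coded IE and without the 3 libraries that stood apart, Sox2 was -0.055, -0.048 and -0.018, Sox3 -0.14, -0.14 and -0.47, and Sox5 -0.15, -0.15 and -0.26. Without the 3 libraries Sox21 was -0.12, and with only the 6 samples Sox9 was 0.00074. Against the controls in Dlx5/6::Cre;Ebf1fl/-, leaving out the 3 libraries gave -0.046 for Sox3, -0.23 for Sox11 and -0.054 for Sox21. Between the mutants it gave -0.10 for Sox1, -0.048 for Sox6 and -0.0079 for Sox11.

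Leaving out each embryo in turn, values in Islet1Cre;Ebf1fl/- ran from -0.048 to 0.090 for Sox2, -0.30 to 0.27 for Sox3, -0.15 to 0.18 for Sox5, -0.022 to 0.23 for Sox6, -0.12 to 0.093 for Sox9 and -0.23 to 0.011 for Sox11. In Dlx5/6::Cre;Ebf1fl/- Sox11 ran from -0.15 to 0.19, and between the mutants Sox6 ran from -0.0041 to 0.28 and Sox21 from -0.064 to 1.23. Over all genes the calls then ran from 15 (without Islet1Cre;Ebf1fl/- replicate 2) to 397 (without Dlx5/6::Cre;Ebf1fl/- replicate 1) in Islet1Cre;Ebf1fl/- and from 143 (without Control replicate 1) to 613 (without Dlx5/6::Cre;Ebf1fl/- replicate 1) in Dlx5/6::Cre;Ebf1fl/-. Every other embryo of the compared groups also lowered these counts by over 1.5 times when left out, and so did Dlx5/6::Cre;Ebf1fl/- replicate 3 for the first (103).

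With the replicate number as a block, Sox9 in Islet1Cre;Ebf1fl/- was 8.88e-05 and 143 and 363 genes were called. Same-numbered embryos did not vary together (mean correlation -0.03), so the numbers do not pair them, and the block changed no call among the 10 genes. Of the 10 genes most like Sox8, 2 were also among the 10 closest by Spearman's rho and 0 by deviations from the genotype means. With 3 embryos a group, Sox3 and Sox21 had intervals of about 1 log2 unit on either side, the widest of the 10.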
